A study of Rattus norvegicus with 12 samples.

Results

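Caspases are cysteine proteases that cut their targets after aspartate residues and are stored in cells as inactive zymogens. The 7 genes described here were the rows of the deposited FPKM table named Casp1, Casp2, Casp4, Casp6, Casp8, Casp9 and Casp12, out of 18344 rows in all. FPKM are sequenced fragments divided by transcript length and by the size of the library, so levels can be set side by side between genes. The table covered 12 RNA sequencing libraries of rat cells, 3 in each of the groups NC, si-NC, CIRBP and si-CIRBP. All cells had gone through OGD/R, that is, deprivation of oxygen and glucose followed by reperfusion, a culture model of ischaemia. The group names give what was added to it, and NC and si-NC are the controls. The titles call the cells H9C2, a line from embryonic rat heart, while the cell line label reads rat astrocytes. Neither the form in which CIRBP was given nor the siRNA sequence is given in the labels. The columns of NC and CIRBP carry a prefix, ad, that the labels do not explain, and those of the si groups do not. The labels call the libraries biological replicates without naming separate cultures or days, so the p-values measure the spread between these libraries, which may be technical.

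In the family, Casp1, Casp4 and Casp12 form the inflammatory group, whose members act in inflammasome signalling and pyroptosis, a lytic death through pores of gasdermin. Casp2, Casp8 and Casp9 are initiators that are activated on adaptor platforms, the PIDDosome, the death receptor complex and the apoptosome. Casp6 is counted among the executioners that the initiators activate. Caspase activity is set chiefly by cleavage of the protein, which mRNA levels do not show.

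Cirbp, the cold-inducible RNA-binding protein after which the groups are named, measured 19.7 ± 0.557 FPKM in NC (mean ± SD, n = 3, as in all values of this form) and 35.8 ± 1.27 FPKM in CIRBP, where it rose (log2 fold change 0.83, adjusted p = 2.47e-06). The si-CIRBP libraries held 27.6 ± 1.04 FPKM and those of si-NC 26.7 ± 2.43 FPKM (0.05, adjusted p = 0.609, but 0.16 and adjusted p = 0.0434 with all libraries scaled to the same median), so the mRNA goes against the label and the group is written below as the si-CIRBP-labelled libraries. The mean correlation of a library with the others of its group across genes was 0.991 to 0.993 in NC and CIRBP, with 0.961 as the lowest value in si-NC and 0.970 in the si-CIRBP-labelled libraries, held by library 1 in each. Summed levels of 8 muscle markers were 4.16 to 7.19 FPKM in NC and CIRBP, 82.1 to 1069 FPKM in si-NC and 491 to 812 FPKM in the si-CIRBP-labelled libraries. Of these markers, 2 had a mean of at least 1 FPKM in NC and in CIRBP, against 5 in si-NC and 6 in si-CIRBP, and the myogenic factors Myod1 and Myog were near 0 in NC and CIRBP (0.0414 and 0.00918 FPKM in NC). Of the astrocyte markers in the table, S100b was at 161 FPKM and Gfap at 4.50 FPKM in NC, while Slc1a3 and Aldh1l1 had a mean under 0.1 FPKM there. The sum of the 6 astrocyte markers was 190 to 204 FPKM in NC and 283 to 301 FPKM in CIRBP, where Aldoc (1.93), Gja1 (0.74) and Gfap (0.52) rose. It was 166 to 196 FPKM in si-NC and 208 to 222 FPKM in the si-CIRBP-labelled libraries, where Aldoc rose (1.68). Macrophages hold much Casp1 and Casp4, and 5 of 12 macrophage markers were measured. Their sum was 15.4 to 21.4 FPKM over the 12 libraries, most of it Cd14, which rose in CIRBP (0.36), while Lyz2 fell in CIRBP (-1.48) and in the other arm (-0.86) and Cd68 fell in the latter (-0.49). The receptor Csf1r did not exceed a mean of 0.15 FPKM in any group. The part of these markers in the results below was not tested. In bulk libraries, fewer cells of a type and less RNA per cell cannot be told apart.

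The caspases were unevenly expressed. Casp4 had the highest mean in every group, followed in NC by Casp12, Casp2, Casp9 and Casp8, and Casp1 and Casp6 stayed under 0.5 FPKM in all 12 libraries. Casp9 and Casp8 overlapped in level in NC, CIRBP and si-NC, as did Casp12 and Casp2 in CIRBP and si-NC, and Casp4 and Casp2 overlapped in the si-CIRBP-labelled libraries. There Casp2 lay above Casp4 in library 2 (16.7 against 13.4 FPKM) and library 3 (15.5 against 14.3 FPKM), and below it in library 1 (14.7 against 30.7 FPKM). The 7 genes summed to 75.6 ± 1.56 FPKM in NC, 97.3 ± 5.11 FPKM in CIRBP, and 78.3 ± 1.22 FPKM in si-NC, and to 55.6 ± 9.61 FPKM in the si-CIRBP-labelled libraries. Casp4 made up 43.0% of that sum in NC, 56.2% in CIRBP, 44.4% in si-NC and 33.8% in the si-CIRBP-labelled libraries.

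**Figure D1:**
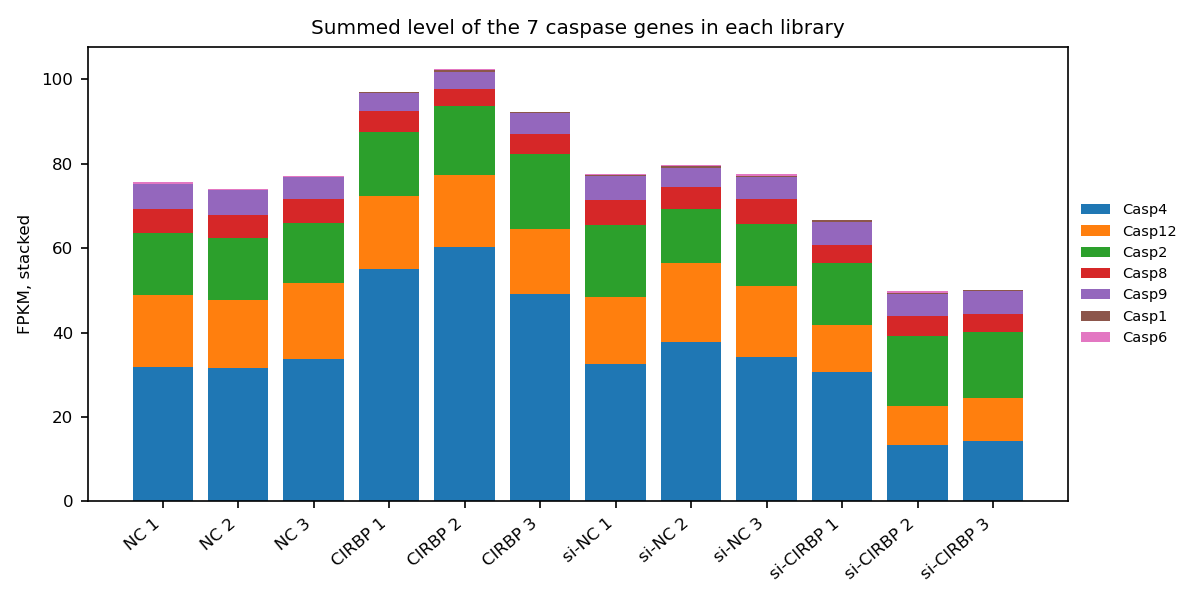
Levels of the 7 caspase genes in FPKM, stacked for each of the 12 libraries. The bars reach 92.3 to 103 FPKM in CIRBP and 49.9 to 66.7 FPKM in the si-CIRBP-labelled libraries, and the Casp4 segment differs most between groups.

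Groups were compared with limma on log2(FPKM + 1) over the 14257 genes that reached 1 FPKM in 3 of the 12 libraries, and a gene was called at an adjusted p under 0.05. Casp2, Casp4, Casp8, Casp9 and Casp12 were tested and were above that level in all 12 libraries. Casp1 and Casp6 were not tested. In CIRBP against NC, Casp4 rose and Casp8 and Casp9 fell, 3 of the 5, beside 54% of all tested genes called (19.7% higher and 34.2% lower). In the si-CIRBP-labelled libraries against si-NC, Casp4, Casp8 and Casp12 fell, again 3 of the 5, beside 29.6% of all tested genes called (9.08% higher and 20.5% lower). Of all genes, 2814 were higher and 4881 lower in CIRBP, against 4089 and 3758 once each library had been multiplied to give all the same median level (scaling to one median), and 1294 were higher and 2924 lower in the other arm, against 2420 and 1903. The number of caspases called in CIRBP is thus near the background, and it ranged from 0 to 3 when single libraries were left out. The median log2 fold change of the 5 genes was -0.02 in CIRBP and -0.27 in the si-CIRBP-labelled libraries, against -0.08 and -0.04 for all tested genes.

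Casp4 (ENSRNOG00000033697) is the rodent caspase also named Casp11, which senses lipopolysaccharide in the cytosol and cleaves gasdermin D. It was at 31.9, 31.7 and 33.8 FPKM in NC libraries 1, 2 and 3 and at 55, 60.2 and 49.2 FPKM in those of CIRBP. In si-NC it was at 32.5, 37.8 and 34.1 FPKM, and in the si-CIRBP-labelled libraries at 30.7, 13.4 and 14.3 FPKM. Every CIRBP library lay above every NC library, and every library labelled si-CIRBP lay below every si-NC library, with si-CIRBP library 1 close to the controls. Such a separation was seen in 29.7% and 24.3% of all tested genes. Casp4 rose 1.69-fold with CIRBP treatment (log2 fold change 0.73, SE 0.237, adjusted p = 0.0228), or 0.82 above the median change of all genes. It fell by 44.1% in the si-CIRBP-labelled libraries (log2 fold change -0.90, SE 0.237, adjusted p = 0.0160). The difference between these changes was itself called (1.64, SE 0.336, adjusted p = 0.00837), beside 17.8% of all tested genes (6.87% in this direction). Without si-CIRBP library 1 the fall was -1.27 (adjusted p = 1.01e-05) and the difference 2.00 (adjusted p = 1.18e-05).

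The Casp4 calls within an arm changed with the libraries in the fit. The rise in CIRBP had an adjusted p of 0.000161 in a fit of NC and CIRBP alone and of 2.23e-05 without si-CIRBP library 1, but was lost without NC library 1 (0.0583), NC library 2 (0.0600), CIRBP library 1 (0.0566) or CIRBP library 2 (0.0738). The fall was lost in a fit of si-NC and si-CIRBP alone (0.114) and without si-CIRBP library 2 (0.0533) or 3 (0.0569). The difference of the arms was called under every alternative run.

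**Figure D2:**
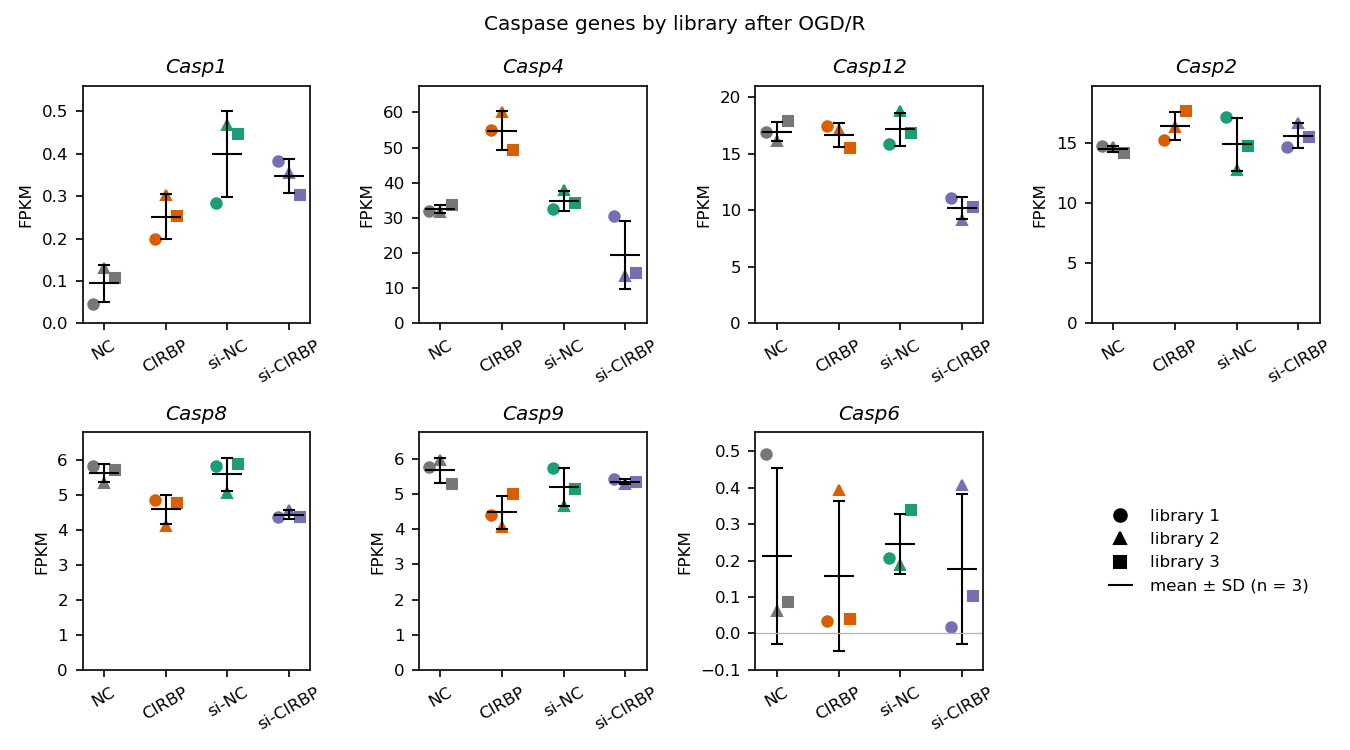
Level of each caspase gene in FPKM by group, with libraries 1, 2 and 3 as circle, triangle and square and the mean ± SD (n = 3) as bars, each panel on its own axis. Casp4 is at 49.2 to 60.2 FPKM in CIRBP and spreads from 13.4 to 30.7 FPKM in the si-CIRBP-labelled libraries, and the Casp12 values of that group, 9.15 to 11.1 FPKM, lie below all others.

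Casp12 (ENSRNOG00000033434) belongs to the inflammatory group by sequence and has been tied to stress of the endoplasmic reticulum (ER) in rodents. It was at 16.9, 16.1 and 17.8 FPKM in NC, 17.4, 17.1 and 15.5 FPKM in CIRBP and 15.9, 18.7 and 16.9 FPKM in si-NC. The libraries labelled si-CIRBP held 11.1, 9.15 and 10.3 FPKM. These 3 values lay below all 9 others, a pattern not counted over all rows. Of all tested genes, 24.3% lay wholly below si-NC in this group. Library 1 did not stand apart from its group as it did for Casp4. Casp12 fell by 40.7% there (log2 fold change -0.70, SE 0.0836, adjusted p = 0.00022), a call kept under all 15 alternatives run, with adjusted p from 0.000128 to 0.0199. In CIRBP against NC its change was not called (-0.02, 95% interval -0.21 to 0.16, adjusted p = 0.846), and its sign turned to 0.12 when the libraries were scaled to one median. The difference of the arms was called (0.68, SE 0.118, adjusted p = 0.00413), beside 17.8% of all tested genes (6.87% in this direction).

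The ratio of Casp4 to Casp12 within a library does not depend on how libraries are scaled. It was chosen for description after the values were seen and was not tested. The ratio was 1.89, 1.97 and 1.89 in NC and 2.05, 2.02 and 2.02 in si-NC, with every si-NC library above every NC library. It was 3.16, 3.52 and 3.18 in CIRBP, above all control libraries. In the si-CIRBP-labelled libraries it was 2.76, 1.46 and 1.40, with library 1 above and libraries 2 and 3 below all control libraries.

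Casp1 (ENSRNOG00000007372), which processes the precursors of interleukin-1 beta and interleukin-18, was barely expressed. It was at 0.0454, 0.130 and 0.108 FPKM in NC, 0.198, 0.304 and 0.254 FPKM in CIRBP, 0.283, 0.467 and 0.446 FPKM in si-NC and 0.383, 0.354 and 0.303 FPKM in the si-CIRBP-labelled libraries. The NC values lay below all 9 others, a pattern not counted over all rows. In a fit with no filter on low values over 18344 rows, Casp1 was called in CIRBP (log2 fold change 0.19, adjusted p = 0.0392) and between the controls (0.35, adjusted p = 0.00481). It was not called in the si-CIRBP-labelled libraries against si-NC (-0.05, adjusted p = 0.638). Of the 18344 rows, that fit called 8715 in CIRBP, 5558 between the controls and 4296 in the si-CIRBP-labelled libraries. The depth behind these values is unknown.

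Casp1, Casp4 and Casp12 are neighbours on rat chromosome 8 in the RefSeq annotation of GRCr8, with no other protein-coding gene between them. The sources used here do not say how reads shared by related genes were counted, so levels within this group are uncertain one by one. RefSeq promoter windows (250 bases before to 50 after the start) were found for 5 of the 7 genes, Casp1, Casp2, Casp6, Casp9 and Casp12. They were searched on both strands for the core of the interferon-stimulated response element (GAAA, any 2 bases, GAAA), for a STAT element (TTC, any 3 bases, GAA) and for an NF-kB element (GGGA, any 4 bases, CC). The first was found in Casp1 and Casp12, against 3.92% of all 33469 promoter windows. The windows of these neighbours are shown because they hold the same 10 bases, TTTCAGTTTC (in capitals), which read GAAACTGAAA on the other strand. The run lies 28 to 19 bases before the start in Casp1 and 38 to 29 bases before it in Casp12. The Casp12 window also held TTCTGGGAA, a match to the STAT element, 74 to 66 bases before the start (8.87% of all windows). The NF-kB element was found in Casp2 and Casp9 (19.3% of all windows). A match is a run of letters and no measured site.
Casp1 (chr8:10872580-10872879, + strand, GRCr8): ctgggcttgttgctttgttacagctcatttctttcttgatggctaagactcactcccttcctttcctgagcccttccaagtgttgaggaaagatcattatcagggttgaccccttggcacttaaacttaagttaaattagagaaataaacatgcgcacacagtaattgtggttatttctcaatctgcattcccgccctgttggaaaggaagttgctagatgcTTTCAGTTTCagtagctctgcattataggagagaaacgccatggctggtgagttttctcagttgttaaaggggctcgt
Casp12 (chr8:10926938-10927237, + strand, GRCr8): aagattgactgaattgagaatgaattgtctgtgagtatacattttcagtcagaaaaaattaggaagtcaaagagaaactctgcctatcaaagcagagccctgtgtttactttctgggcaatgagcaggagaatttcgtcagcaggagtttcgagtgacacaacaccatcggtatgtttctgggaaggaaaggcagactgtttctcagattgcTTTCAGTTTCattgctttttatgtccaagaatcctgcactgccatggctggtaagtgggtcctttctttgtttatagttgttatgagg

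Of the initiators, Casp8 (ENSRNOG00000012331), which death receptors activate through Fadd, was at 5.82, 5.33 and 5.70 FPKM in NC and 4.86, 4.11 and 4.77 FPKM in CIRBP. It was at 5.82, 5.05 and 5.88 FPKM in si-NC and 4.38, 4.58 and 4.35 FPKM in the si-CIRBP-labelled libraries. In each arm the treated values lay below all control values, as for 45% and 24.3% of all tested genes in these comparisons. Casp8 fell with log2 fold changes of -0.25 (SE 0.0796, adjusted p = 0.022) and -0.27 (SE 0.0796, adjusted p = 0.025). The difference between the arms was 0.03 (95% interval -0.22 to 0.28). Scaling of the libraries to one median ended both calls, at -0.12 (adjusted p = 0.203) and -0.18 (adjusted p = 0.103). That scaling moved the median of all genes by 0.11 in CIRBP against NC and by 0.10 in the other arm, and relative to the median of all genes Casp8 was at -0.16 and -0.23. Scaling by median ratios, which takes the median over genes of the ratio to a common reference, also ended both calls (adjusted p = 0.176 and 0.054). The call in CIRBP was further lost without NC library 1 or 3 or CIRBP library 2 (0.0772, 0.0651 and 0.0982). The call in the other arm was lost without si-NC library 1 or 3 or si-CIRBP library 3 (0.0621, 0.0879 and 0.0634), in a fit of those 6 libraries alone (0.154) and with a variance factor per group (0.223).

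Casp9 (ENSRNOG00000012944), which Apaf1 and cytochrome c activate in the apoptosome, was at 5.77, 5.97 and 5.29 FPKM in NC and 4.40, 4.06 and 4.99 FPKM in CIRBP. All CIRBP values lay below all NC values, as for 45% of all tested genes. Casp9 fell with a log2 fold change of -0.29 (SE 0.0871, adjusted p = 0.0169). Scaling to one median ended the call (-0.16, adjusted p = 0.122), as did scaling by median ratios (adjusted p = 0.106). It also ended without NC library 1 or 2 or CIRBP library 1 or 2 (0.054, 0.0658, 0.0528 and 0.0746). In si-NC it was at 5.75, 4.67 and 5.16 FPKM and in the si-CIRBP-labelled libraries at 5.42, 5.30 and 5.35 FPKM. These groups overlapped, and no change was called (0.04, 95% interval -0.15 to 0.23). The difference of the arms was -0.33 (adjusted p = 0.0939), but without si-NC library 1 it was called (-0.39, adjusted p = 0.0415).

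Casp2 (ENSRNOG00000016707), the initiator of the PIDDosome, was at 14.7, 14.6 and 14.2 FPKM in NC and 15.3, 16.4 and 17.6 FPKM in CIRBP. The CIRBP values lay above those of NC, as for 29.7% of all tested genes, but the change was not called (log2 fold change 0.16, 95% interval -0.04 to 0.37, adjusted p = 0.170). Scaling to one median made it a call (0.31, adjusted p = 0.0096), as did median ratios (0.30, adjusted p = 0.00883). It was also called with NC and CIRBP fitted alone (adjusted p = 0.032) and with a variance factor per group (0.0155). In si-NC Casp2 was at 17.2, 12.8 and 14.8 FPKM and in the si-CIRBP-labelled libraries at 14.7, 16.7 and 15.5 FPKM, which overlapped (0.07, 95% interval -0.14 to 0.28).

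Casp6 (ENSRNOG00000009508), an executioner that cuts nuclear lamins, was near the lower end of detection. It was at 0.492, 0.0627 and 0.0866 FPKM in NC, 0.0354, 0.394 and 0.0408 FPKM in CIRBP, 0.208, 0.188 and 0.338 FPKM in si-NC and 0.0181, 0.408 and 0.102 FPKM in the si-CIRBP-labelled libraries. All 4 groups overlapped. A single library stood well above the others of its group in NC, CIRBP and si-CIRBP, so no level order between groups can be read for Casp6.

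Between the controls, limma called 0 of the 5 tested caspases in si-NC against NC, and 0 had an unadjusted p under 0.05, beside 34.4% of all tested genes called (12.5% higher and 21.9% lower). All 5 overlapped between the groups, where 19.1% of all tested genes lay wholly above and 34% wholly below. The log2 fold changes ran from -0.11 for Casp9 to 0.10 for Casp4, and the widest 95% interval was that of Casp4, -0.43 to 0.62. That interval uses 1 spread shared by all 4 groups, and the SD of Casp4 was 9.72 FPKM in si-CIRBP, against 1.15 in NC and 2.71 in si-NC. The adjusted p of Casp4 was 0.788 here, 0.298 with NC and si-NC fitted alone and 0.336 without si-CIRBP library 1. No test of whether the count of called caspases is lower than for other genes was made. Some markers of muscle and fibroblasts differed between these groups, in both directions on the fibroblast list. Col1a1 was at 1.79 ± 0.585 FPKM in NC and at 42.4, 661 and 395 FPKM in si-NC. Acta2, on the muscle list, was at 1.41 ± 0.915 FPKM and at 73.8, 954 and 722 FPKM, and si-NC library 1 was the lowest of its group for both genes. Col3a1 and Thy1 rose as well (6.24 and 4.37), and Pdgfrb had a higher mean in si-NC (6.36 and 22.5 FPKM). On the same fibroblast list, means were lower in si-NC for S100a4 (1752 and 1132 FPKM), Pdgfra (86.8 and 65.8 FPKM) and Vim (2592 and 2291 FPKM). The summed level of the 7 listed genes overlapped, at 4369 to 4489 FPKM in NC and 3809 to 4546 FPKM in si-NC. The part of these markers in these results was not tested. This comparison shares its NC and si-NC libraries with the arms.

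**Figure D3:**
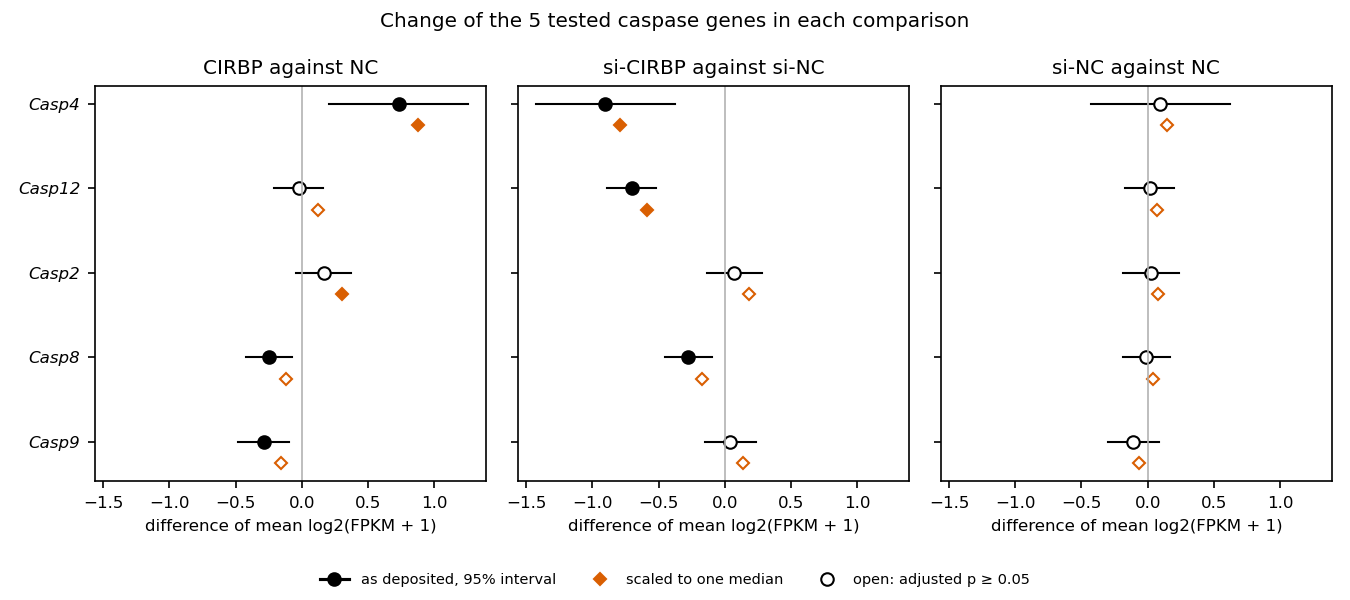
Difference of group means on the log2(FPKM + 1) scale for the 5 tested caspase genes, as circles with 95% intervals, and after scaling of libraries to one median, as diamonds, with filled symbols for an adjusted p under 0.05. Casp4 lies at 0.73 in CIRBP against NC and at -0.90 in si-CIRBP against si-NC, and the Casp8 and Casp9 symbols turn open after scaling.

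Casp4 was the only member whose group means spanned at least 1 on the log2(FPKM + 1) scale. Of 10567 named genes, those nearest to its pattern were Atf4, Nfxl1 and Slc1a5, by the root-mean-square difference over the 12 libraries after each gene was centred on its mean (0.22, 0.26 and 0.29 on that scale). Atf4 is the main transcription factor of the integrated stress response and of amino acid deprivation, Slc1a5 a glutamine transporter and Nfxl1 a zinc finger protein. Atf4 was at 234 ± 4.90 FPKM in NC, 271 ± 5.51 FPKM in CIRBP and 203 ± 23.0 FPKM in si-NC. In the si-CIRBP-labelled libraries it was at 148, 91.8 and 95.3 FPKM, with library 1 the highest, as for Casp4. Slc1a5 was there at 50.2, 23.0 and 22.9 FPKM and Nfxl1 at 10.9, 6.51 and 6.73 FPKM, with the same library highest. Atf4 was not called in CIRBP against NC (log2 fold change 0.21, adjusted p = 0.281) and fell in the si-CIRBP-labelled libraries (-0.88, adjusted p = 0.00174). Slc1a5 rose in CIRBP (1.24, adjusted p = 0.00105) and Nfxl1 did too (0.68, adjusted p = 0.0026), while neither was called in the other arm (adjusted p = 0.296 and 0.156). The part of si-CIRBP library 1 in the likeness was not tested.

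**Figure D4:**
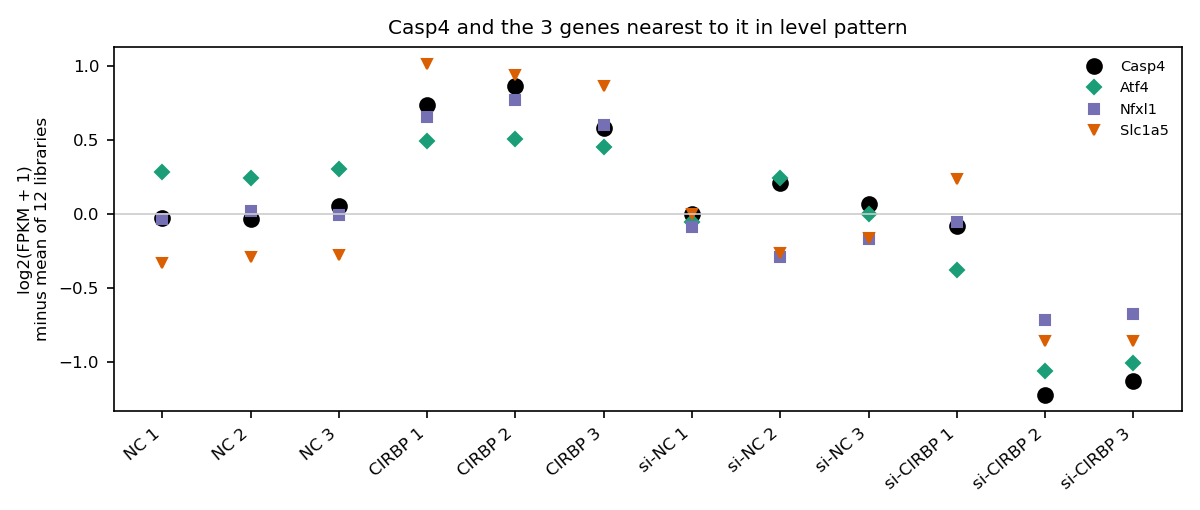
Level of Casp4, Atf4, Nfxl1 and Slc1a5 in each library as log2(FPKM + 1) minus the gene's mean over the 12 libraries. All 4 genes are highest in CIRBP, and si-CIRBP library 1 lies above libraries 2 and 3 for each of them.

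Partners of the inflammatory caspases were described from a list of 18 inflammasome and pyroptosis genes, of which 13 were tested. In CIRBP 2 rose and 4 fell (median log2 fold change -0.10, against -0.08 for all genes), a split of 4 and 3 after scaling to one median or by median ratios. In the si-CIRBP-labelled libraries 3 fell and none rose (median -0.13, against -0.04). Of all tested genes, 19.7% rose and 34.2% fell in CIRBP and 20.5% fell in the other arm. Gbp2 and Gbp5, interferon-induced GTPases that help Casp4 reach lipopolysaccharide on bacteria, fell in both arms. Gbp2 went from 34.5 ± 2.10 to 14.7 ± 0.241 FPKM in CIRBP and from 80.9 ± 10.4 to 32.1 ± 16.4 FPKM in the si-CIRBP-labelled libraries. Gbp5 went from 13.8 ± 0.533 to 6.13 ± 0.809 FPKM and from 16.4 ± 2.04 to 4.19 ± 1.88 FPKM. Mefv, which encodes the inflammasome sensor pyrin, fell in both arms too (log2 fold changes -1.11 and -0.50), but it reached 1 FPKM in the 3 NC libraries and si-NC library 1 alone and so passed the filter on low values through NC, the group where it was highest. Ninj1, which ruptures the plasma membrane late in lytic death, rose in CIRBP from 136 ± 4.58 to 203 ± 6.81 FPKM (0.58) and was not called in the other arm (-0.07). Gsdmd, the target of Casp4, was not called in either arm, at 5.38 ± 0.461 and 4.10 ± 0.581 FPKM in NC and CIRBP and 14.6 ± 6.16 and 15.1 ± 1.03 FPKM in the si groups. Of 8 tested interferon and STAT factors, Irf3 rose and 5 fell in CIRBP (median -0.81, and 4 after either scaling), and 4 fell in the si-CIRBP-labelled libraries (median -0.45), to be read against the same shares of all genes. Irf9 (-2.26 and -2.36) and Irf7 (-2.22 and -2.71) fell in both arms, while Casp4 rose in the first arm and fell in the second.

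Around Casp8, 4 of 8 tested death receptor and adaptor genes rose in CIRBP and 4 fell (median log2 fold change -0.13), and 3 fell in the si-CIRBP-labelled libraries (median -0.15), where 1 rose after scaling. Of all tested genes, 19.7% rose and 34.2% fell in CIRBP, and 9.08% rose and 20.5% fell in the other arm. Traf2, an adaptor of tumour necrosis factor receptors, was at 70.9, 68.9 and 75.7 FPKM in NC and 11.9, 13.7 and 13.4 FPKM in CIRBP, a fall of -2.38 (SE 0.154, adjusted p = 7.13e-07). It also fell from 40.9 ± 7.16 to 19.0 ± 4.57 FPKM in the si-CIRBP-labelled libraries (-1.08), less than in CIRBP (difference -1.31, adjusted p = 0.00338). Tnfrsf12a, the receptor of TWEAK, fell from 188 ± 7.23 to 74.6 ± 4.34 FPKM in CIRBP and in the other arm from 215 ± 9.08 to 131 ± 13.3 FPKM. Ripk1, the kinase that joins death receptor and NF-kB signalling, fell in both arms (-0.42 and -0.37). Tnfrsf21, death receptor 6, is 1 of the 4 that rose in CIRBP (0.76), from 0.689 ± 0.0972 to 1.86 ± 0.0708 FPKM. It reached 1 FPKM in CIRBP alone and so passed the filter on low values only through the group where it was highest. Casp8 holds necroptosis in check, and its mediators Ripk3 and Mlkl, both tested, fell in both arms. Mlkl went from 21.0 ± 0.626 to 16.1 ± 1.32 FPKM and from 22.7 ± 0.501 to 16.3 ± 0.667 FPKM. The fall of Ripk3 in the si-CIRBP-labelled libraries (-0.21, adjusted p = 0.0453) was kept under 4 of the 15 alternatives, and lost without si-NC library 1 or 3 (0.104 and 0.125) or si-CIRBP library 1 or 3 (0.0973 and 0.0645). Scaling to one median brought it to -0.098 (adjusted p = 0.269) and median ratios to -0.14 (adjusted p = 0.126).

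Of 6 caspase inhibitors, Birc5 rose and Birc2, Birc3 and Birc6 fell in CIRBP (median log2 fold change -0.28), 4 of 6 called beside 54% of all tested genes. Birc3, cIAP2, an NF-kB target that ubiquitinates Ripk1, was at 14.7, 14.5 and 14.6 FPKM in NC and 1.52, 1.49 and 1.80 FPKM in CIRBP (-2.58, SE 0.388, adjusted p = 0.000233). Birc2, cIAP1, went from 33.8 ± 1.31 to 14.9 ± 0.840 FPKM (-1.13). Birc5, survivin, which also serves in mitosis, went from 50.4 ± 1.06 to 93.6 ± 5.39 FPKM (0.88). Xiap, the direct inhibitor of Casp9, was at 13.9 ± 1.38 and 13.8 ± 0.233 FPKM and was not called. In the si-CIRBP-labelled libraries, Birc5 rose and Birc2 and Birc3 fell (median -0.20, against -0.04 for all genes). Thus 3 of 6 were called as deposited, beside 29.6% of all tested genes in this arm (9.08% higher and 20.5% lower). After either scaling 1 rose and 1 fell. Birc3 was there at 16.9, 3.6 and 4.67 FPKM against 20.0, 14.6 and 16.1 FPKM in si-NC, so library 1 stood with the controls as it did for Casp4. That call (-1.19, adjusted p = 0.0406) was kept under 5 of 15 alternatives, and lost without any single si-NC library (0.0561 to 0.103) and without si-CIRBP library 2 or 3 (0.129 and 0.126). Without si-CIRBP library 1 the fall was -1.80 (adjusted p = 1.24e-05). The Birc5 call in this arm (0.37, adjusted p = 0.0354) was kept under 8 alternatives. It was lost without si-NC library 2 or 3 (0.0877 and 0.105) or si-CIRBP library 2 or 3 (0.115 in each case).

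A list drawn up around Casp9 held 6 genes of the apoptosome and of mitochondrial release. In CIRBP, Cycs and Endog rose and Htra2 and Aifm1 fell (median log2 fold change -0.01), 4 of 6 called, again beside 54% of all. Cycs, cytochrome c, went from 60.6 ± 0.832 to 68.3 ± 0.767 FPKM and Htra2, a protease that antagonises the inhibitors, from 43.5 ± 0.275 to 30.8 ± 0.760 FPKM. The calls in CIRBP were lost for Cycs without NC library 1 or 2 or CIRBP library 1 or 2 (0.0598 to 0.0678) and for Endog without NC library 1 (0.057). Aifm1 and Endog encode the caspase-independent death factors AIF and endonuclease G. Cycs and Endog also rose in the si-CIRBP-labelled libraries, and none of the 6 fell (median 0.13, against -0.04 for all genes). Of all tested genes, 9.08% rose and 20.5% fell in that arm. After scaling to one median 3 rose and 2 fell in CIRBP, and 4 rose in the other arm. That scaling called 4089 of 14257 tested genes higher and 3758 lower in CIRBP, and 2420 higher in the other arm. The partners of Casp2, Pidd1 and Cradd, were tested and not called in either arm.

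A list of caspase targets and genes linked to them held 9 tested genes. In CIRBP 1 rose and 4 fell (median log2 fold change -0.10), against 2 and 3 after scaling to one median. As deposited, 5 of 9 were called there, beside 54% of all tested genes. Bid, the protein that Casp8 cuts to reach the mitochondria, was at 12.8, 12.8 and 12.6 FPKM in NC and 4.45, 4.98 and 4.84 FPKM in CIRBP (-1.26, adjusted p = 1.52e-05). Of the lamins, Lmna fell (-0.62) and Lmnb1 rose (1.08), and Acin1, a chromatin condensation factor, fell (-0.70). In the si-CIRBP-labelled libraries, Parp1 rose and Dffb and Bid fell (median -0.23), 3 of 9 called beside 29.6% of all tested genes. The Bid values overlapped there, and its fall (-0.48, adjusted p = 0.0177) was kept under 9 of 15 alternatives, and lost without si-NC library 2 or 3 (0.0519 and 0.0529) or si-CIRBP library 2 or 3 (0.0572 and 0.0574). Of 10 tested genes of ER stress and calpains, to which Casp12 has been tied, 3 fell and none rose in each arm (median -0.17 and -0.19), beside 34.2% and 20.5% of all tested genes lower, while after scaling to one median 1 rose in CIRBP and 2 in the other arm. Xbp1, an effector of the unfolded protein response, fell in both arms (-0.64 and -0.51). Capn2, a calpain subunit, fell in CIRBP from 137 ± 1.78 to 92.2 ± 0.444 FPKM, as did Eif2ak3, the PERK kinase (-0.32). These lists were written with earlier results of these data known, and no list was tested as a set.

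**Figure D5:**
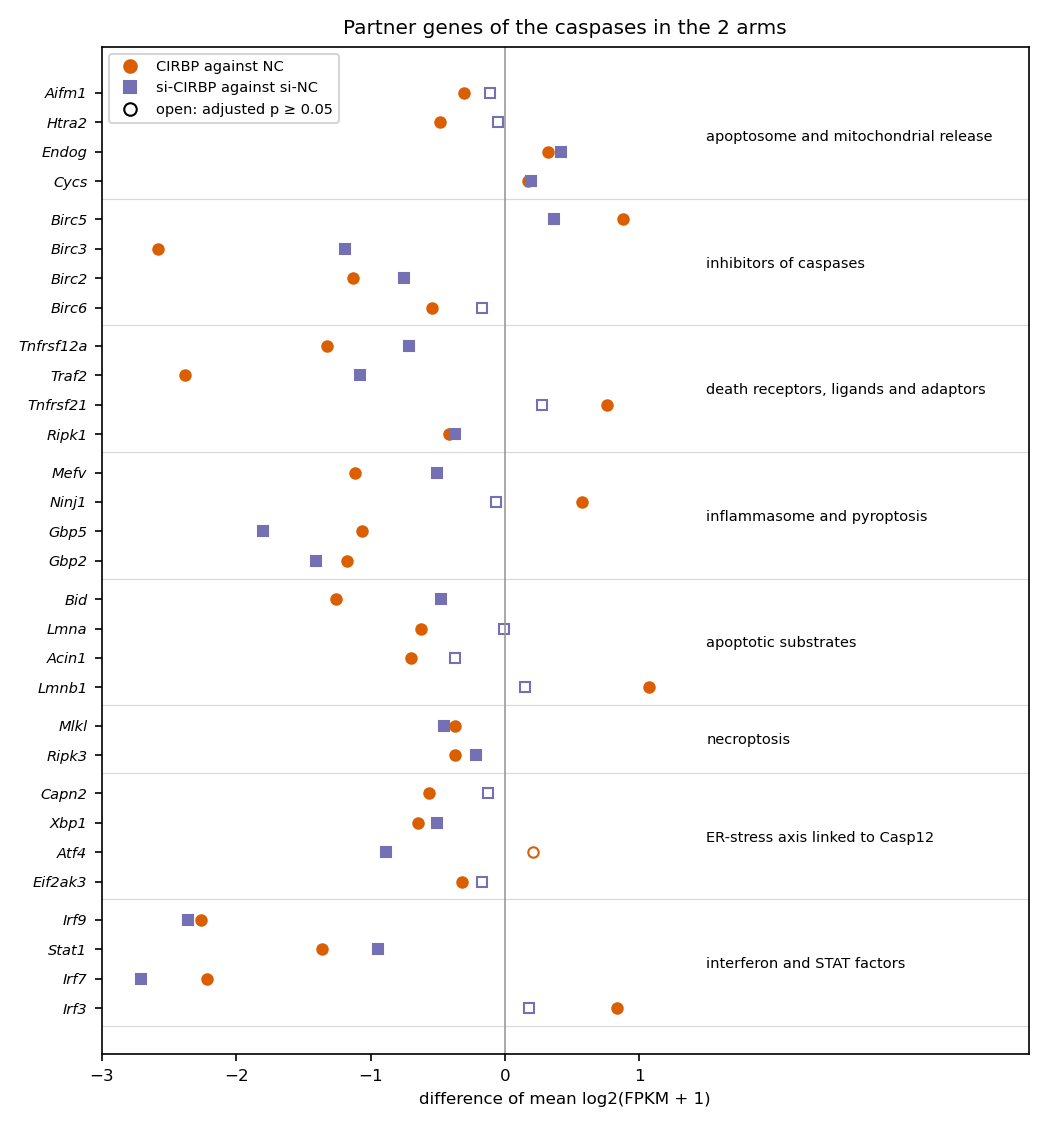
Difference of group means on the log2(FPKM + 1) scale for partner genes of the caspases, by list, in CIRBP against NC (circles) and si-CIRBP against si-NC (squares), filled for an adjusted p under 0.05. Irf9 lies at -2.26 and -2.36, and Birc3 and Traf2 lie at -2.58 and -2.38 in CIRBP.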

How the data were processed

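The values were FPKM per gene, as deposited by the authors. The submitters' processing notes name Bowtie2 2.3.3.1, Cufflinks 2.2.1 and, though the cells are from rat, the builds GRCm38 and mm10 of mouse, with no role for any, and the identifiers are rat Ensembl genes. For strand, annotation and shared reads, the setting was not given in the sources used here. Libraries were grouped by title. limma 3.58.1 (eBayes with a trend, R 4.3.3) was fitted on log2(FPKM + 1) with 1 coefficient per group over all 12 libraries (8 residual and 2.53 prior degrees of freedom), two-sided, with Benjamini-Hochberg adjustment over 14257 genes, and was tested on simulated data. Fold changes on this scale understate those of low genes. Absolute depth is unknown. Ratios of values under 0.3 FPKM put relative depth at 0.842 to 1.03 times that of NC library 1, and summed FPKM at 457775 to 502889. Gsdmd, Xiap, Pidd1, Cradd, Parp1, Dffb and the markers were named after their values were seen. Other named genes were the members, Cirbp, up to 4 called genes per list with the smallest adjusted p in either arm, and the 3 genes nearest in pattern to a member. A further list is not reported here. Members and lists were chosen with earlier results of these data known. Promoters came from RefSeq (GRCr8). Alternatives covered pseudocount, filter, scaling, spread, libraries and replicate block.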

Additional observations from a re-analysis of the deposited data

Results flagged for a closer look

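The change of Casp4 differed between the arms by a test of the difference itself. CIRBP minus NC, less si-CIRBP minus si-NC, was 1.64 on the log2(FPKM + 1) scale (limma, adjusted p = 0.00837). The 3 CIRBP libraries lay above the 3 of NC, and the 3 labelled si-CIRBP lay below the 3 of si-NC. Such separations were seen in 29.7% and 24.3% of all tested genes. Library 1 labelled si-CIRBP (30.7 FPKM) was close to si-NC library 1 (32.5 FPKM). The difference of the arms was called for 17.8% of all tested genes. The same test gave 0.68 for Casp12 (adjusted p = 0.00413), whose level was lower in the 3 libraries labelled si-CIRBP alone.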

How the results depend on the processing

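The difference of the arms stayed called for Casp4 (1.43 to 2.00) and Casp12 (0.61 to 0.74) under all 20 alternatives run, and the fall of Casp12 in si-CIRBP against si-NC (-0.76 to -0.59) under all 15. For that comparison a fit of its 6 libraries alone called 1 caspase and 1155 of all genes, against 3 and 4218, and a variance factor per group called 2019 genes. The cause was not tested. With no filter on low values 1 caspase, Casp1, was called between the controls, beside 5558 of all 18344 rows. With single libraries left out, caspases called ranged from 0 to 3 in CIRBP against NC, 1 to 3 in si-CIRBP against si-NC, 0 to 0 between the controls and 2 to 3 for the difference, and all genes called from 6687 to 8825, 3253 to 5095, 3085 to 6721 and 1596 to 4503. The fewest for the difference, 1596, came without CIRBP library 2 and the most, 4503, without si-CIRBP library 1. Without NC libraries 1, 2 and 3 and CIRBP library 1 the difference gave 1650, 1673, 1686 and 1621. The controls gave 3107 without NC library 2 and 3085 without si-NC library 3. Leaving out si-CIRBP library 1 where it is in neither group was chosen after seeing the data.

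Signs of uncalled changes turned. Casp12 in CIRBP went from -0.02 to 0.12 after either scaling (0.119 and 0.115) and ranged from -0.059 to 0.026 without single libraries. Casp8 between the controls went from -0.01 to 0.037 and 0.049 after either scaling, and ranged from -0.042 to 0.051 without single libraries. Without single libraries, Casp2 ranged from -0.026 to 0.17 and Casp9 from -0.021 to 0.10 in si-CIRBP against si-NC, where Cirbp ranged from -0.018 to 0.11. Between the controls Casp12 ranged from -0.047 to 0.065 and Casp2 from -0.074 to 0.12, and for the difference Casp2 from -0.0077 to 0.19 and Casp8 from -0.0094 to 0.088. The comparison of the controls split 1783 higher and 3126 lower as deposited and 2272 and 2385 by median ratios, and the difference 980 and 1555 against 1396 and 1282. The replicate block called 3, 3, 0 and 2 caspases and 7512, 3926, 4525 and 2232 genes in the 4 comparisons, so no caspase count moved, while the calls of Birc5 and Ripk3 in si-CIRBP against si-NC were lost (0.052 and 0.0527). With si-NC and si-CIRBP fitted alone, the calls there of Endog (0.058), Cycs (0.17), Xbp1 (0.0726), Mefv (0.0835), Birc2 (0.0974) and Ripk1 (0.109) were lost as well. Scaling to one median kept the calls in CIRBP of Aifm1 (-0.16), Mlkl (-0.22), Ripk3 (-0.22), Eif2ak3 (-0.18) and Cycs (0.32), which moved by over 1.5 times, as did Cycs in the other arm (0.31). In NC and CIRBP, the deviations of same-numbered libraries correlated at 0.0482 to 0.0995 across genes, and all 6 libraries correlated best with their own number. Deviations of differently numbered libraries correlated there at -0.0830 to -0.00817. In the si groups, same-numbered libraries correlated at -0.0898 to 0.0405, and 2 of 6 correlated best with their own number. Between the controls the range was -0.0344 to 0.00653, and 1 of 6 did so. Same numbers thus went together, weakly, in NC and CIRBP alone, while the labels name no pairing.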
